A study of Mus musculus with 6 samples.

Results

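The cytosolic ribosomal protein genes were described in RNA sequencing libraries of primitive macrophages that had been differentiated from mouse embryonic stem cells, 3 from Ts1Cje cells and 3 from wild-type (WT) cells. Members were taken by name and annotation: every protein-coding gene of the deposited count table whose symbol is Rpl or Rps followed by a digit, with Rplp0, Rplp1, Rplp2 and Rpsa, and without the Rps6k kinases and symbols that contain "-ps". This gave 87 of 55487 genes, 52 of the large and 35 of the small subunit. The rule used no measured value. It also takes Rps19bp1 and Rps23rg1, which carry a ribosomal protein's name but are not ribosomal proteins, and it leaves out Fau and Rack1, which are given separately.

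Ts1Cje mice model Down syndrome: the end of chromosome 16, with the genes that follow Sod1 as far as Zbtb21, is present in an extra copy attached to chromosome 12. All 6 cultures were stem cells driven toward primitive macrophages over 12 days with M-CSF, IL-3, SCF, VEGF, activin A, BMP-4 and FGF2, and they differed by the genotype of the mouse that gave the stem cells. The series asks why microglia, the brain macrophages that descend from primitive macrophages, are fewer in Ts1Cje embryos. The labels number the libraries of each genotype as lots 1 to 3, given here as replicates, and do not say whether a lot is a separate stem cell line, animal or differentiation. P-values therefore measure only the spread between these libraries, which may be technical.

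The cytosolic ribosome is built from ribosomal RNA and one copy of most ribosomal proteins in each particle. The small subunit reads the mRNA, and the large subunit joins amino acids and carries the stalk that recruits translation factors. Ribosomal protein mRNAs are made in step with each other, and most begin with a run of pyrimidines at the 5′ end, the terminal oligopyrimidine (TOP) motif, through which mTOR signalling controls their translation. Loss of a single copy of several of these genes causes Diamond-Blackfan anaemia in humans, a failure of red cell production. None of the 87 genes lies in the segment that Ts1Cje cells carry in extra copy. The 3 members on chromosome 16, Rpl39l, Rpl35a and Rpl24, end before Sod1, so their copy number is the same in both genotypes as the model is described.

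Total counts were 32658148, 26146044 and 31222049 in Ts1Cje replicates 1 to 3 and 25484294, 26293793 and 26372632 in WT replicates 1 to 3, with 17586 to 18935 genes detected. The macrophage genes were present: Spi1, a transcription factor required for macrophages, had 229.5 ± 1.54 CPM in Ts1Cje and 204 ± 37.6 CPM in WT libraries (CPM, counts scaled to library size; SD, n = 3 each). Csf1r, the M-CSF receptor, had 1088, 1136 and 1119 CPM in Ts1Cje libraries and 2435, 1528 and 1066 CPM in WT libraries. Of the marker lists of other cells, those of neutrophils summed to 0.112 to 0.828 CPM in Ts1Cje and 0.150 to 0.336 CPM in WT libraries, and those of embryonic stem cells to 4.74 to 6.95 CPM and 0.850 to 11.1 CPM, with Sox2 and Esrrb at 0 counts in all 6. Erythroid markers summed to 37.0 to 67.0 CPM in Ts1Cje and 42.0 to 78.3 CPM in WT libraries, and mast cell and megakaryocyte markers to 46.2 to 154 CPM and 39.8 to 187 CPM. Endothelial, mesenchymal, epithelial and neural markers each summed to at most 79.6 CPM in any library, and heart muscle markers to 1.09 to 14.1 CPM in Ts1Cje and 2.36 to 68.9 CPM in WT libraries, highest in WT replicate 1. WT replicate 1 stood apart on the first principal component, at 88.2 against -38.7 to 18.7 for the other 5 libraries. It also had the lowest sum over 14 genes of the G2 and M phases, 140 CPM. This sum was 991 and 1038 CPM in WT replicates 2 and 3 and 606 to 1139 CPM in Ts1Cje libraries. Mitochondrial genes took 1.32% of the counts of WT replicate 1, against 0.885% to 0.972% in the other 5 libraries. The part of these differences in the results that follow was not tested, and values without WT replicate 1 are given for Rps27, Rps27l, Rpl4, Rpl24, Rplp0, Snhg1 and Snhg4.

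The start of the transcript is shown for some members, since TOP mRNAs are defined by it. Shown are the members with an unadjusted edgeR p under 0.05 between genotypes, the relatives Rps27rt and Rps27l of Rps27, and Rps6, whose groups overlapped. These lines were picked and do not stand for all members, for which shares are given below. Each line gives 30 bases before and 30 bases after an annotated start from RefSeq (GRCm38.p6, the mm10 build), 5′ to 3′, with every run of at least 6 C or T in capitals. They are Rps27 at chr3:90213619-90213678 on the minus strand, Rps27rt at chr9:114982710-114982769 on the minus strand, Rps27l at chr9:66946056-66946115 on the plus strand, Rpl22l1 at chr3:28805478-28805537 on the plus strand, Rpl22 at chr4:152325696-152325755 on the plus strand, Rpl31 at chr1:39367821-39367880 on the plus strand, Rps21 at chr2:180257349-180257408 on the plus strand and Rps6 at chr4:86857338-86857397 on the minus strand.
Rps27: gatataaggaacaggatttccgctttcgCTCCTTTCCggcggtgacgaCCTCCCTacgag
Rps27rt: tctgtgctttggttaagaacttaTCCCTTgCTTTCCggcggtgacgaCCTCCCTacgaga
Rps27l: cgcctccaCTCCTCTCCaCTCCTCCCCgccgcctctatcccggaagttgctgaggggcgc
Rpl22l1: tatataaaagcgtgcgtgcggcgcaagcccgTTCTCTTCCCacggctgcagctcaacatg
Rpl22: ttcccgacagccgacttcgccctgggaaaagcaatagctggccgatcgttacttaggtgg
Rpl31: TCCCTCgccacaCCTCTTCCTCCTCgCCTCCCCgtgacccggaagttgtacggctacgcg
Rps21: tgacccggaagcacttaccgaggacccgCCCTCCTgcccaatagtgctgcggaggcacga
Rps6: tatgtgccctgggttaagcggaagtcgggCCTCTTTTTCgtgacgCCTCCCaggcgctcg

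In the Rps27, Rps21, Rpl31 and Rps6 windows a pyrimidine run crosses the annotated start, which falls between the 30th and the 31st base, and in the Rps27rt and Rpl22l1 windows one lies beside it. The Rpl22 window holds no such run. Rps27 and the retrogene Rps27rt share an identical stretch of 29 bases, ctttccggcggtgacgacctccctacgag, at the start of the transcript. RefSeq starts were found for 67 of the 87 members, 79 starts in all. A run of at least 6 C or T within 30 bases of the start was present in 56 of these windows, 70.9%, against 49.6% of 32851 starts of all genes. CTTTCC or CTCTTT on the gene's own strand was present in 21 windows, 26.6%, against 4.83% of all starts; on the opposite strand these were 3.80% and 4.65%. They were 13 of 47 windows of the large and 8 of 32 of the small subunit. CCGGAAG, the core of the site that ETS factors such as GABP bind, was present on either strand of the whole 300 bases in 27 member promoters, 34.2%, against 8.86% of all promoters. A match is a description of the letters and not evidence of binding.

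Ribosomal protein mRNAs were abundant and held nearly the same order in every library. The level given is the deposited TPM, a transcript abundance that divides each count by gene length and scales every library to the same sum. Over both genotypes 61 of the 87 genes averaged above 100 TPM and 8 averaged under 10 TPM. The highest was Rps3a1, a small subunit protein at the mRNA exit side, with 1132, 1249 and 978 TPM in Ts1Cje libraries and 1267, 1246 and 1118 TPM in WT libraries, replicates 1 to 3 in order here and below. Rpl4, a large subunit protein that lines the exit tunnel, had 805, 865 and 695 TPM in Ts1Cje libraries and 1096, 892 and 813 TPM in WT libraries. Rps2, which lies by the mRNA entry channel, had 829, 911 and 736 TPM in Ts1Cje libraries and 780.3, 843 and 887 TPM in WT libraries. The ranges of the genotypes overlapped for these genes. Among the next genes in the order, Rpl32 averaged 673 ± 26.1 TPM in Ts1Cje and 779 ± 52.6 TPM in WT libraries, and the stalk genes Rplp1 and Rplp0 averaged 703 ± 29.8 TPM in Ts1Cje and 708 ± 9.28 TPM in WT libraries and 725 ± 56.0 TPM in Ts1Cje and 669 ± 93.8 TPM in WT libraries (SD, n = 3 each). Rplp1 and Rplp0 overlapped over the 6 libraries, whereas Rpl32 lay above Rplp1 in every WT library. The rank correlation of member TPM between any pair of libraries was 0.975 to 0.994 over the 87 genes, a description, since the libraries share gene lengths and annotation.

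**Figure D1:**
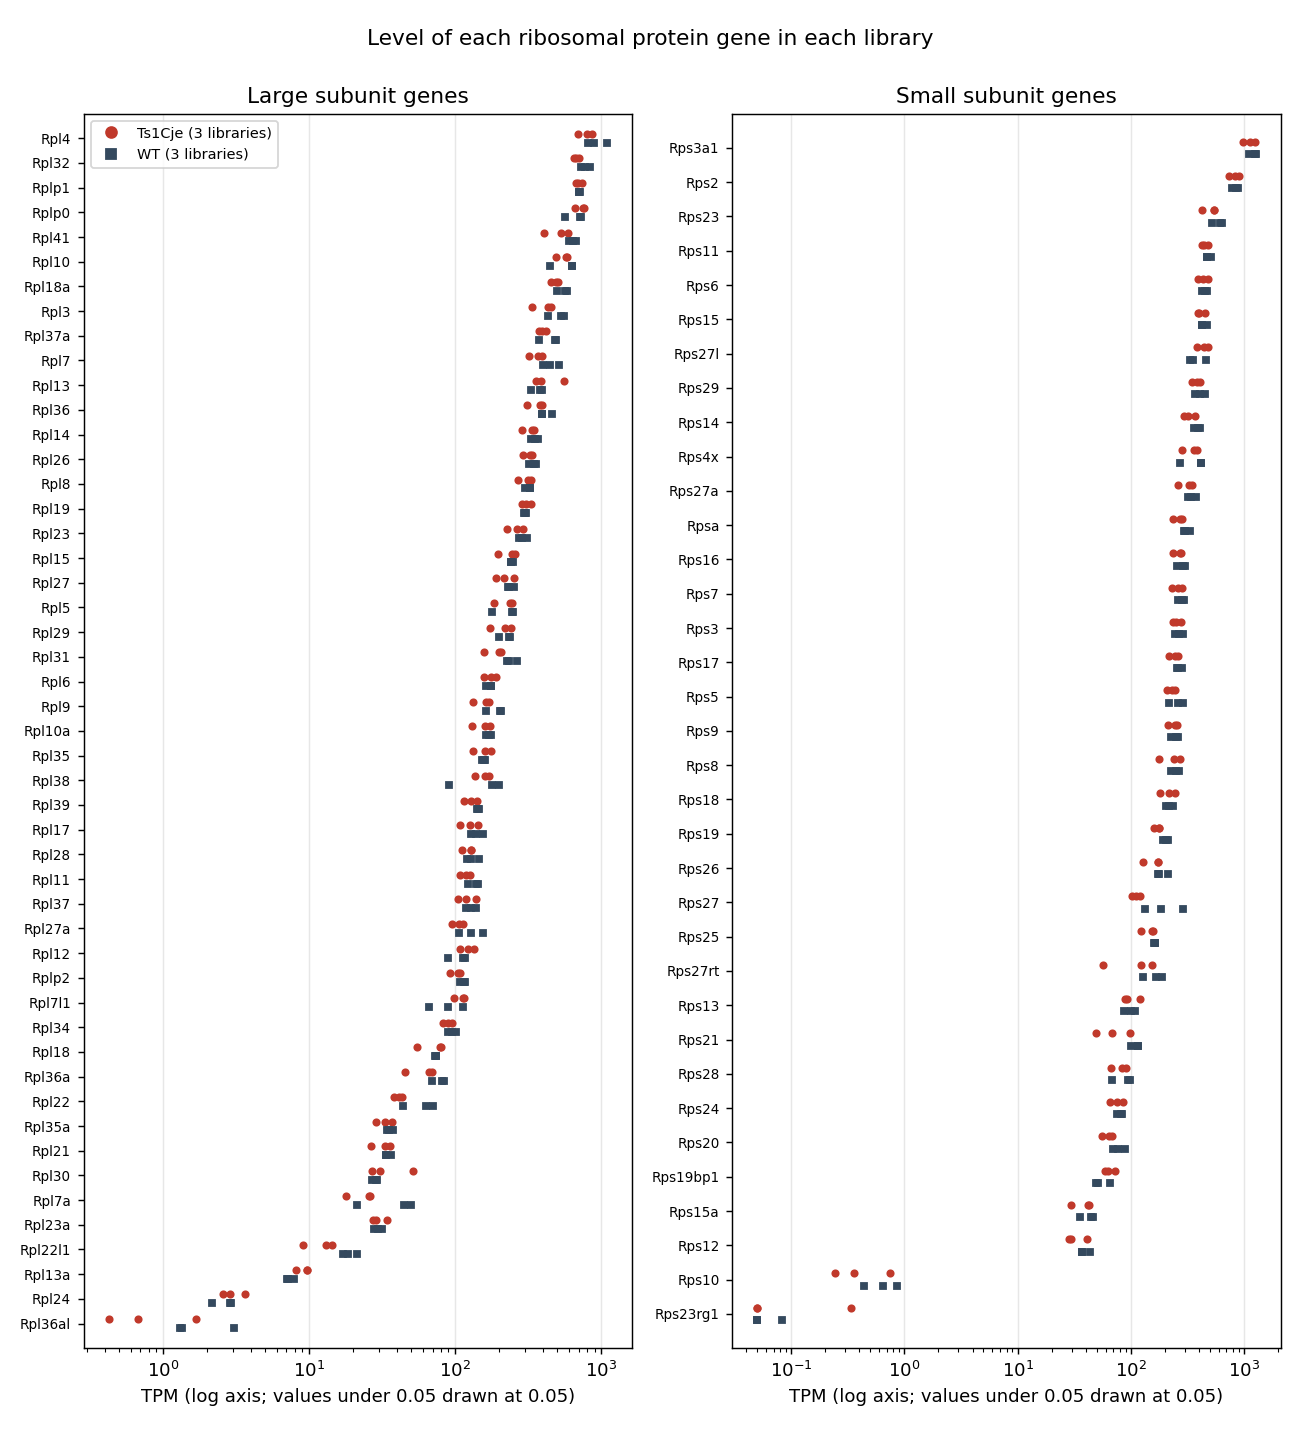
Deposited TPM (log axis) of each ribosomal protein gene with counts, large subunit left and small subunit right, ordered by mean; circles are the 3 Ts1Cje and squares the 3 WT libraries, and values under 0.05 are drawn at 0.05. The 2 genotypes overlie for most genes, Rps3a1 and Rpl4 are at the top, and Rps23rg1, Rps10, Rpl36al, Rpl24 and Rpl13a lie far below the rest.

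The median small subunit gene was higher per length than the median large subunit gene in all 6 libraries, over all 35 and 52 members. The large set includes Rpl3l, Rpl10l and Rpl39l, which had no counts, and Rpl24, Rpl13a and Rpl36al, under 10 TPM. The small set includes Rps10 and Rps23rg1, under 10 TPM. The part of these genes in the difference was not tested. Small subunit medians were 247, 248 and 209 TPM in Ts1Cje and 227, 250.5 and 256 TPM in WT libraries, and large subunit medians were 148, 165 and 132 TPM in Ts1Cje and 161, 152 and 158 TPM in WT libraries. The length used for the deposited TPM is that of all annotated exons of a gene merged, which was checked on 80 members. It was a median 1.92 times that of the principal transcript and up to 6.79 times. Per kilobase of the principal transcript, a length chosen after the values were seen, the medians were 177 CPM per kb for the small and 111 CPM per kb for the large subunit, so the order of the subunits was the same. Single genes moved more: Rps19 was 43rd by TPM and 6th per kilobase of principal transcript, and Rpl13 was 18th and 3rd. The rank correlation of both orders was 0.902 over 87 genes.

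Members at the low end fall into several kinds. Rpl3l, a muscle form of Rpl3, and Rpl10l and Rpl39l, testis forms of Rpl10 and Rpl39, had 0 counts in all 6 libraries. Rps23rg1, a retrogene, had 13 counts in all. Rps10, a small subunit protein of the head, had 9, 15 and 6 counts in Ts1Cje and 17, 9 and 13 counts in WT libraries, although it is a core ribosomal protein. Rpl24, a large subunit protein that bridges to the small subunit, had 3.64, 2.90 and 2.57 TPM in Ts1Cje libraries and 2.18, 2.94 and 2.90 TPM in WT libraries. Rpl36al had 0.676, 0.424 and 1.68 TPM in Ts1Cje libraries and 1.31, 3.07 and 1.36 TPM in WT libraries. Rpl13a averaged 9.16 ± 0.919 TPM in Ts1Cje and 7.36 ± 0.491 TPM in WT libraries (SD, n = 3 each). These 4 genes, Rps10, Rpl36al, Rpl24 and Rpl13a, have 20.6%, 24.5%, 47.0% and 35.4% of their exon bases overlapped on the same strand by another gene model in GENCODE M21, and the overlapping models had 0 counts in all 6 libraries. Of the 79 members at or above 10 TPM, 0 had at least 20% overlapped in this way, and the highest share was 14.5%. The 20% limit was chosen after the values were seen. The sources used here do not give how reads in such overlaps were counted, and its part in these low levels was not tested.

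Sequence shared with other genes was common among the members. Ribosomal protein genes have many processed copies, and the share also counts gene models that overlap a member at its own locus, on either strand. Rpl35, for example, had 95.1% of windows shared and 66.2% of its exon bases overlapped by other models. The parts of copies and of overlap in the share were not tested. A median 44.7% of the 50-base windows of a member's longest coding transcript was found unchanged in another annotated gene, and 4 members had none. The share was 63.1% for Rps27, 91.1% for Rps27rt, 81.7% for Rpl24, 65.6% for Rpl22l1, 70.0% for Rpl31, 81.2% for Rpl7a, 26.4% for Rps21 and 5.19% for Rpl22. The 38 members with at least 50% shared and the 49 below had median TPM of 216 and 173, and their median fold change between genotypes was -0.12 on the log2 scale in both. The sources used here do not say whether reads with several positions were counted. Members with a high share are therefore uncertain as single genes.

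The genotypes were then compared. No ribosomal protein gene passed the threshold between Ts1Cje and WT macrophages, and most had a small negative fold change. Log2 fold changes are Ts1Cje over WT from counts, so a negative value is lower in Ts1Cje. Of the 83 members tested, 0 had an adjusted p under 0.05 by edgeR's quasi-likelihood test with Benjamini-Hochberg adjustment over 13821 genes, a threshold that 1 gene or 0.00724% of all passed, namely Dnah11, which is not a member. DESeq2 and limma-voom also called 0 members. At an unadjusted p under 0.05, 5 members were lower in Ts1Cje (Rps27, Rpl22l1, Rpl22, Rpl31 and Rps21), where 2.8% of all tested genes were, and 0 were higher, where 2.99% were. In TMM-scaled CPM, all 3 Ts1Cje libraries lay below all 3 WT libraries for 18 members, where this held for 5.72% of all tested genes, and above for 2, Rpl12 and Rpl13a, where it held for 6.38%. Of the 83, 68 had a negative and 15 a positive fold change, where 50.8% of all genes were negative. RNA of a bulk culture cannot tell fewer cells of a type from less RNA per cell.

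The median member was slightly lower in Ts1Cje. The median log2 fold change was -0.12 over the 83 members, with quartiles of -0.24 and -0.05, beside -0.01 over all genes tested, and the median standard error of a single member's fold change was 0.14. Measured from the WT mean, the median member lay at -0.11, -0.10 and -0.19 in Ts1Cje and at 0.03, 0.04 and -0.07 in WT libraries on the log2 scale. Every Ts1Cje library was lower than every WT library in this median, whose pooled SD between libraries of a genotype was 0.056; the median was not tested. Ts1Cje replicate 3 was the lowest of the 6 libraries for 40 of the 83 members, and WT replicates 1 and 2 were the highest for 28 and 26. The mitochondrial share of Ts1Cje replicate 3, 0.940%, and its 18104 genes detected lay within the range of the other libraries. Without it the median over members was -0.10. With each library left out in turn, WT replicate 1 among them, this median ranged from -0.16 to -0.10.

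The balance of the subunits did not shift with genotype beyond the spread between libraries. The median log2 fold change was -0.12 for the 49 large subunit genes tested and -0.12 for the 34 small subunit genes, a difference of 0.003, while the pooled SD of that difference between libraries of a genotype was 0.028. Large subunit genes lay at -0.12, -0.10 and -0.18 in Ts1Cje and 0.03, 0.07 and -0.07 in WT libraries, and small subunit genes at -0.09, -0.09 and -0.21 in Ts1Cje and 0.02, 0.04 and -0.08 in WT libraries. Negative fold changes made up 37 of 49 large and 31 of 34 small subunit genes. The other 12 large and 3 small subunit genes were positive, a difference between the subunits that was not tested. The 3 highest, all of the large subunit by name, were Rpl30, Rpl13a and Rpl7l1 at 0.38, 0.33 and 0.28. Rpl30 had 30.4, 26.9 and 51.1 TPM in Ts1Cje libraries and 29.2, 28.8 and 27.1 TPM in WT libraries, so that Ts1Cje replicate 3 alone was high, and without WT replicate 2 Rpl7l1 was at 0.09. Of the windows of Rpl30, 79.2% recur in other genes. Its processed copy Rpl30-ps10, chosen after its values were seen, had 6.92, 7.60 and 1.16 CPM in Ts1Cje and 8.98, 8.60 and 8.42 CPM in WT libraries. It was thus lowest in the library where Rpl30 was highest, and the part of read assignment in this was not tested.

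Summed counts of the members overlapped between the genotypes. Ribosomal protein genes took 1.23%, 1.28% and 1.07% of all counts in Ts1Cje and 1.28%, 1.36% and 1.25% in WT libraries. The ratio of summed large to summed small subunit counts was 1.30, 1.33 and 1.31 in Ts1Cje and 1.33, 1.32 and 1.27 in WT libraries. In sums of TPM the ratio was 1.22, 1.28 and 1.27 in Ts1Cje and 1.27, 1.25 and 1.24 in WT libraries. Neither ratio separated the genotypes.

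**Figure D2:**
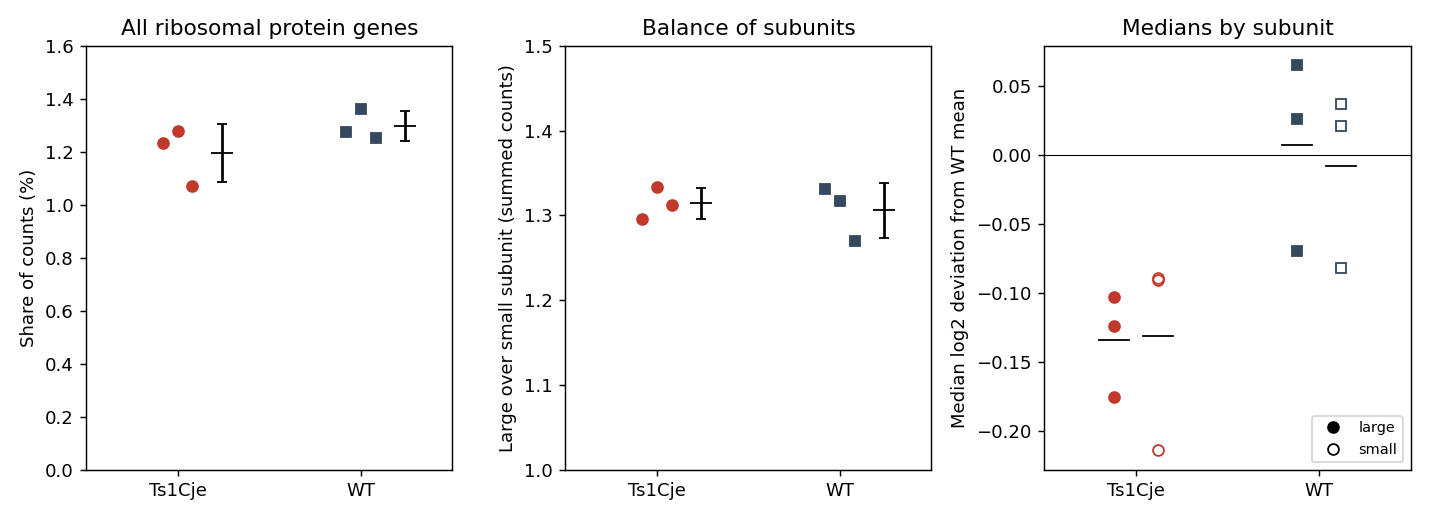
Share of counts in ribosomal protein genes (%), ratio of summed large to small subunit counts (axis from 1), and median log2 deviation from the WT mean for large (filled) and small (open) subunit genes, for each of 3 Ts1Cje and 3 WT libraries; bars are mean and SD, or the mean alone on the right. The share overlaps between genotypes at 1.28%, the ratio stays between 1.27 and 1.33, and the medians of the Ts1Cje libraries lie below those of the WT libraries.

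**Figure D3:**
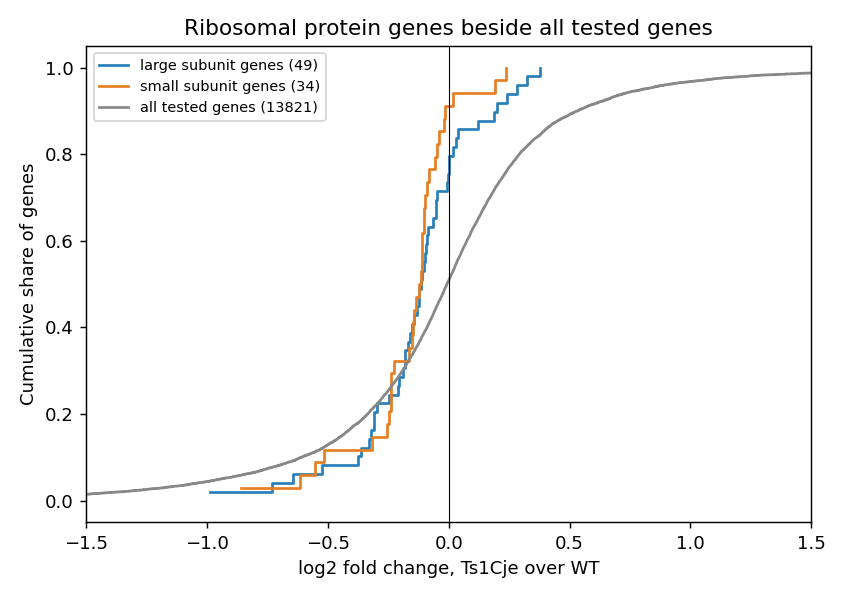
Cumulative share of genes by log2 fold change, Ts1Cje over WT, for 49 large and 34 small subunit genes and all 13821 genes tested. Both subunits have a median of -0.12 and a narrower spread than all genes, whose median is -0.01.

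Rps27 had the smallest p of the small subunit and was lower in Ts1Cje. Rps27 encodes a small subunit protein with a zinc finger, also called metallopanstimulin. It had 112, 120.1 and 103 TPM in Ts1Cje libraries and 287, 184 and 134 TPM in WT libraries. All 3 Ts1Cje libraries lay below all 3 WT libraries, but the WT libraries ranged widely and replicate 1 was far above the others. The log2 fold change was -0.86 ± 0.28 (SE), with an edgeR p of 0.0155 and a Benjamini-Hochberg adjusted p of 0.792; without WT replicate 1 it was -0.50.

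The paralogs of Rps27 had overlapping groups. Rps27l, a paralog that p53 induces, had 481, 444 and 388 TPM in Ts1Cje libraries and 333, 354 and 466 TPM in WT libraries, and the groups overlapped at a log2 fold change of 0.19 ± 0.15 (SE), which was 0.10 without WT replicate 1. The TPM ratio of Rps27l to Rps27 was 4.32, 3.69 and 3.77 in Ts1Cje and 1.16, 1.92 and 3.47 in WT libraries. The ratio was higher in every Ts1Cje library than in any WT library, with WT replicate 3 close to them. Per length of the principal transcript it was 2.33, 2.00 and 2.04 in Ts1Cje and 0.628, 1.04 and 1.88 in WT libraries, so which of the pair was higher in WT replicate 1 turned with the length used. Rps27rt, the retrogene whose transcript start repeats that of Rps27, had 154, 56.5 and 124 TPM in Ts1Cje libraries and 167, 187 and 127 TPM in WT libraries, with overlapping groups and a log2 fold change of -0.51 ± 0.37 (SE). Its ratio to Rps27 was 1.38, 0.470 and 1.21 in Ts1Cje and 0.582, 1.02 and 0.945 in WT libraries. Since 91.1% of the windows of Rps27rt recur in other genes, its counts and those of Rps27 cannot be told apart with certainty.

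Rpl22l1 and Rpl22, a pair of large subunit paralogs, were both lower in Ts1Cje. Rpl22 binds RNA outside the ribosome as well as in it, and in mice it represses Rpl22l1. Rpl22 had 41.5, 43.4 and 38.2 TPM in Ts1Cje libraries and 70.0, 63.0 and 44.2 TPM in WT libraries, and Rpl22l1 had 13.1, 14.3 and 9.08 TPM in Ts1Cje libraries and 17.1, 18.5 and 21.4 TPM in WT libraries. For both genes the Ts1Cje libraries lay below the WT libraries, and for Rpl22 the gap to WT replicate 3 was small. The log2 fold changes were -0.53 ± 0.20 and -0.64 ± 0.23 (SE), with edgeR p of 0.0316 and 0.0234 and a Benjamini-Hochberg adjusted p of 0.792 for both. With each library left out in turn, Rpl22 ranged from -0.70 to -0.37 and Rpl22l1 from -0.75 to -0.52. The TPM ratio of Rpl22l1 to Rpl22 was 0.316, 0.330 and 0.238 in Ts1Cje and 0.244, 0.294 and 0.484 in WT libraries, which overlapped.

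Rpl31 and Rps21 completed the members under an unadjusted p of 0.05. Rpl31, a large subunit protein beside the exit tunnel, had 199, 207 and 158 TPM in Ts1Cje libraries and 265, 233 and 226 TPM in WT libraries. Rps21, a small protein of the small subunit, had 97.9, 49.3 and 68.9 TPM in Ts1Cje libraries and 115, 116 and 101 TPM in WT libraries. The Ts1Cje libraries of both genes lay below the WT libraries, and those of Rps21 were widely spread. The log2 fold changes were -0.36 ± 0.14 and -0.62 ± 0.26 (SE), with edgeR p of 0.0336 and 0.0457 and a Benjamini-Hochberg adjusted p of 0.792 for both. Without Ts1Cje replicate 2, its lowest library, Rps21 was at -0.39. Of the exon bases of Rpl31, 25.3% lie opposite Tbc1d8 on the other strand, and without strand the reads of both genes cannot be told apart there.

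Next in order of p were Rps20 and Rpl41, then Rpl36a, Rpl7, Rpl7a and Rps19. Rps20, a protein of the small subunit head, had 64.6, 67.9 and 56.0 TPM in Ts1Cje libraries and 76.8, 88.4 and 69.9 TPM in WT libraries, a log2 fold change of -0.32 ± 0.14 (SE). Rpl41, the smallest ribosomal protein, had 527, 591 and 406 TPM in Ts1Cje libraries and 640.3, 669 and 603 TPM in WT libraries, a log2 fold change of -0.33 ± 0.15 (SE). In both the Ts1Cje libraries lay below the WT libraries. Rpl7a, a large subunit protein, had 10.4, 14.7 and 16.8 CPM in Ts1Cje libraries and 30.6, 26.7 and 12.4 CPM in WT libraries, a log2 fold change of -0.73 ± 0.36 (SE), and WT replicate 3 lay among the Ts1Cje libraries. Rpl7 and its paralog Rpl7l1 had opposite signs: Rpl7 averaged 363 ± 37.4 TPM in Ts1Cje and 453 ± 55.0 TPM in WT libraries and Rpl7l1, a relative of a ribosome assembly factor of yeast, averaged 108 ± 8.66 TPM in Ts1Cje and 89.6 ± 24.1 TPM in WT libraries (SD, n = 3 each). Their TPM ratio, Rpl7l1 to Rpl7, was 0.309, 0.284 and 0.306 in Ts1Cje and 0.174, 0.147 and 0.284 in WT libraries. The ratio of Ts1Cje replicate 2 was all but equal to that of WT replicate 3, so the groups touched. Rpl36a, on the X chromosome, averaged 60.3 ± 12.8 TPM in Ts1Cje and 78.0 ± 7.62 TPM in WT libraries (SD, n = 3 each), and its paralog Rpl36al was at 0.00616 to 0.0367 of it in Ts1Cje and 0.0162 to 0.0380 in WT libraries.

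**Figure D4:**
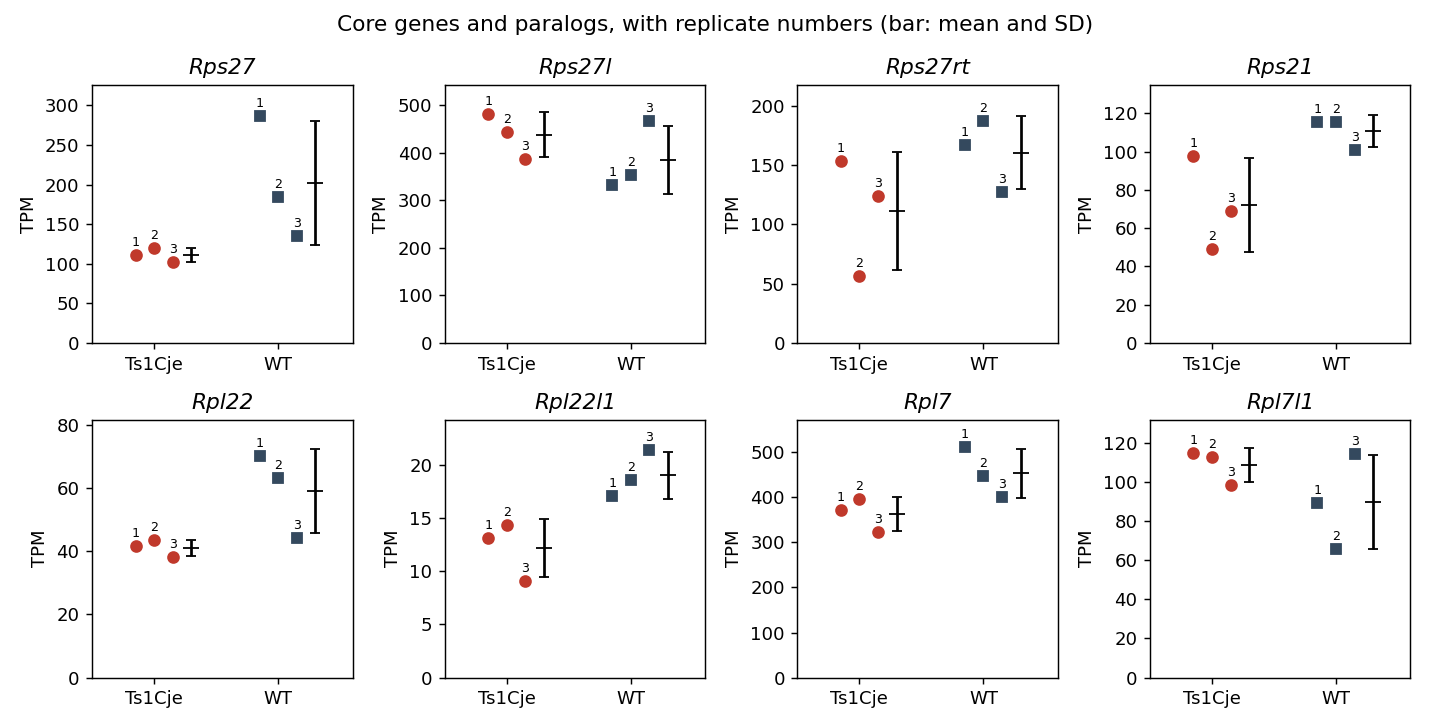
Deposited TPM of Rps27, Rps27l, Rps27rt, Rps21, Rpl22, Rpl22l1, Rpl7 and Rpl7l1 in the 3 Ts1Cje (circles) and 3 WT (squares) libraries, with replicate numbers; bars are mean and SD and axes start at 0. Rps27, Rps21, Rpl22, Rpl22l1 and Rpl7 are lower in all 3 Ts1Cje libraries than in any WT library, and the WT libraries of Rps27 range from 134 to 287 TPM.

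No gene of the stalk or of the other proteins with a known role outside or inside the ribosome passed the test. Rplp0, the base of the stalk, had 746, 767 and 661 TPM in Ts1Cje libraries and 561, 728 and 718 TPM in WT libraries, and its log2 fold change was 0.12 ± 0.15 (SE). Rplp1 and Rplp2, the acidic proteins that extend it, were at 0.00 ± 0.13 and -0.15 ± 0.12 (SE), and the sign of Rplp1 turned with most other settings. Rpsa, also known as the laminin receptor precursor, had 286, 270.2 and 237 TPM in Ts1Cje libraries and 295, 301 and 333 TPM in WT libraries, so the groups did not overlap, at a log2 fold change of -0.22 ± 0.13 (SE). Rpl5 and Rpl11, which with 5S ribosomal RNA hold Mdm2 and so stabilise p53 when ribosome assembly is disturbed, were at -0.00 ± 0.17 and -0.19 ± 0.13 (SE). Rps6, the substrate of S6 kinase, had 435, 479 and 389 TPM in Ts1Cje libraries and 468, 449 and 423 TPM in WT libraries, with overlapping groups. That no difference passed does not show that these genes were equal in both genotypes. Rpl3 and Rpl10, near the peptidyl transferase centre, were at -0.31 ± 0.16 and -0.05 ± 0.16 (SE), and Rpl39, in the exit tunnel, was at -0.16 ± 0.12 (SE). The 3 genes with the highest mean TPM in the small subunit, Rps3a1, Rps2 and Rps23, were at -0.11, -0.02 and -0.24. Those of the large subunit, Rpl4, Rpl32 and Rplp1, were at -0.25, -0.21 and 0.00. Without WT replicate 1, Rpl4 was at -0.10 and Rplp0 at 0.01.

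The members on chromosome 16, all outside the extra segment, had overlapping groups where they had counts. Rpl35a, whose loss causes Diamond-Blackfan anaemia in humans, had 37.0, 33.4 and 28.7 TPM in Ts1Cje libraries and 35.4, 37.5 and 34.1 TPM in WT libraries, at a log2 fold change of -0.11 ± 0.14 (SE). Rpl24 was at 0.19 ± 0.50 (SE), and at 0.06 without WT replicate 1, on few counts. Among the 15 members named in Diamond-Blackfan anaemia in humans, 15 had a negative and 0 a positive fold change. Of all 83 members tested 68 were negative, and of all genes tested 50.8% were. The median of the 15 was -0.12, the same as over all members. Rpl5, among them, was at -0.00, with a sign that turned under some other settings. Rps27 alone was lower at an unadjusted edgeR p under 0.05, where 5 of the 83 members and 2.8% of all genes were. In TMM-scaled CPM all 3 Ts1Cje libraries lay below all 3 WT libraries for 3 of the 15 (Rps19, Rps26 and Rps27). This held for 18 of the 83 members and 5.72% of all genes. Rps19, the gene most often affected in that disease, had 178, 176 and 160.0 TPM in Ts1Cje libraries and 215, 194 and 207 TPM in WT libraries, a log2 fold change of -0.25 ± 0.13 (SE). The smallest WT value of Rps19 was above the largest Ts1Cje value.

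**Figure D5:**
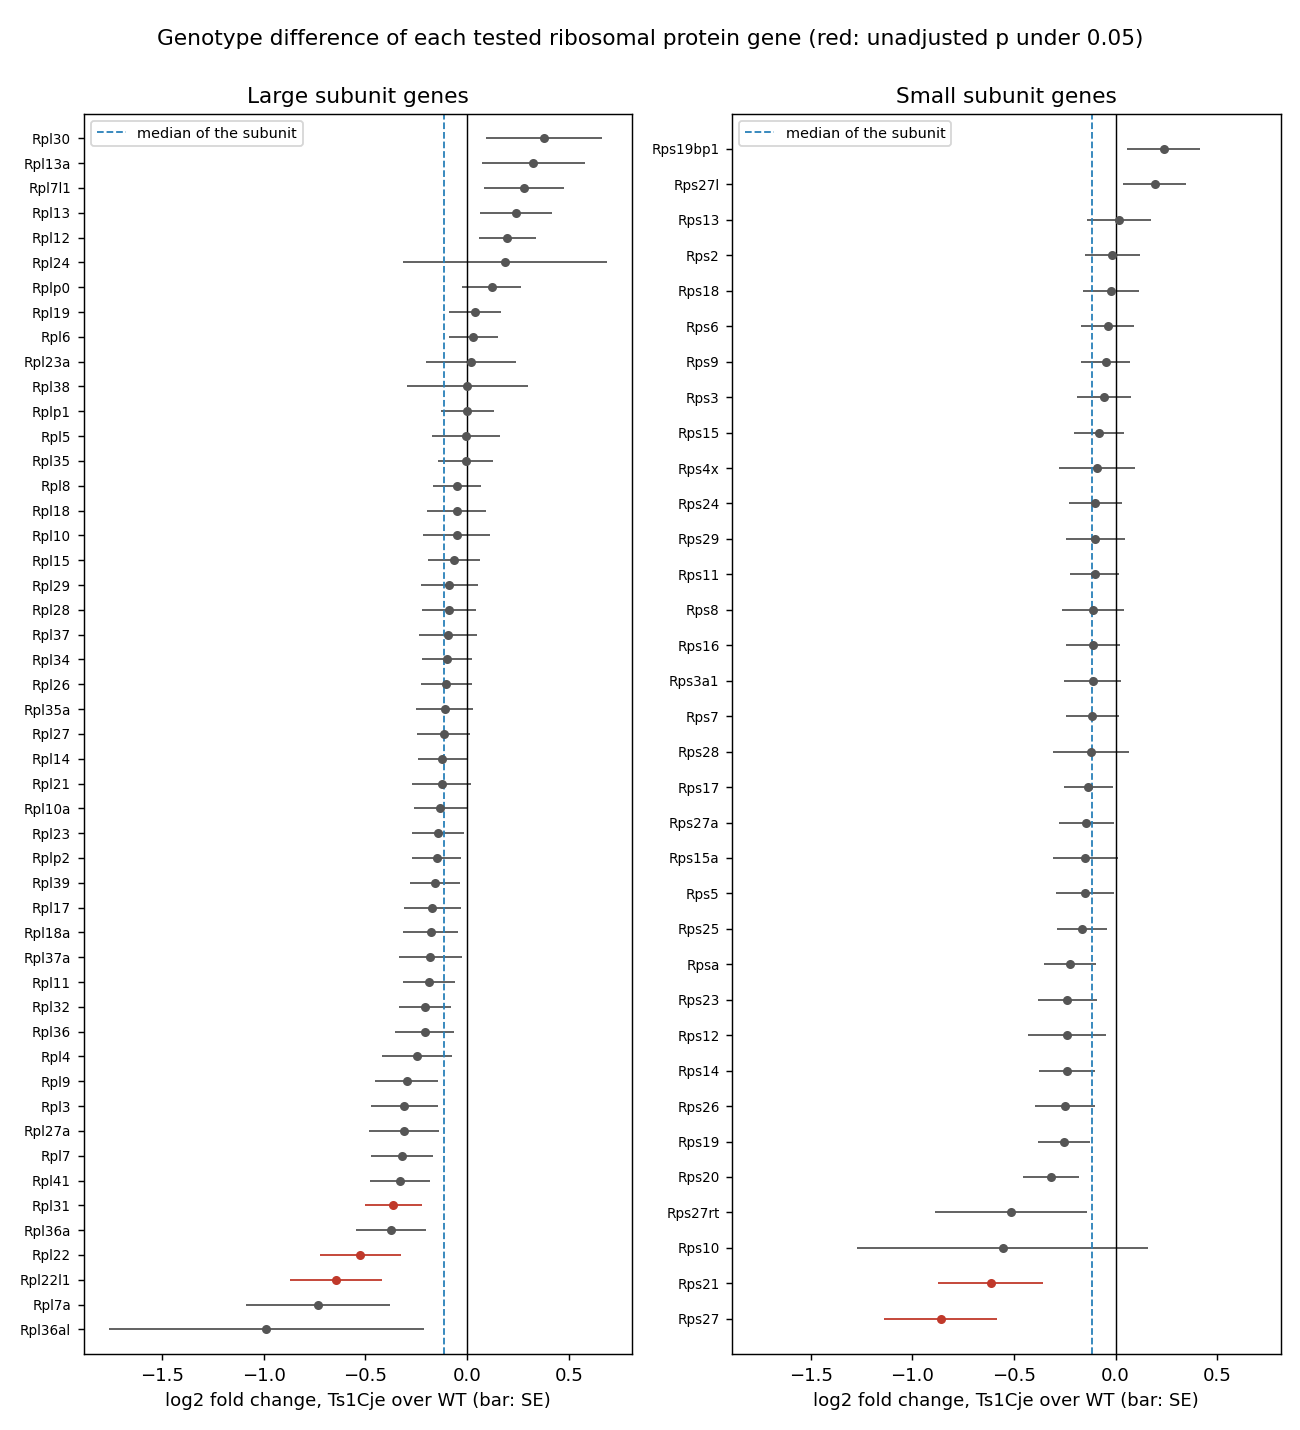
Log2 fold change, Ts1Cje over WT, of the 49 large and 34 small subunit genes tested, ordered by size; bars are the SE, red marks an unadjusted edgeR p under 0.05, and the dashed line is the median of the subunit, -0.12 in both. Negative values make up 37 of 49 large and 31 of 34 small subunit genes, and Rpl36al and Rps10 have the widest bars.

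Genes that work with the ribosomal proteins were read from the same fit. Fau, which is made as a fusion of a ubiquitin-like protein and a small subunit protein, had 135, 164 and 139 CPM in Ts1Cje libraries and 184, 182 and 179 CPM in WT libraries, and the groups did not overlap. Its log2 fold change was -0.31 ± 0.13 (SE), with an edgeR p of 0.0450 and a Benjamini-Hochberg adjusted p of 0.792. Rack1, a scaffold on the small subunit, was at 0.08 ± 0.14 (SE). Of 17 translation factors and other genes with TOP mRNAs, 0 had an unadjusted edgeR p under 0.05, where 2.8% of all genes were lower and 2.99% higher. Of the 17, 6 were positive and 11 negative, where 50.8% of all genes were negative, and the median was -0.06. Eif4b, which helps unwind mRNA at the start of translation, was at -0.28 ± 0.14 and Eif3h, a subunit of the initiation factor that binds the small subunit, at -0.25 ± 0.14 (SE). The median of the TOP genes that encode no ribosomal protein thus lay between the members and all genes, a difference that was not tested. Measured from the WT mean, it was at -0.10, 0.02 and -0.15 in Ts1Cje and -0.05, 0.02 and 0.04 in WT libraries, so the genotypes overlapped.

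Most of the ribosome assembly factors tested had a positive fold change, and none passed the test. Of 59 tested, 42 had a positive and 17 a negative fold change, where 49.2% of all genes were positive, and the median was 0.15, beside -0.01 over all genes. By edgeR with Benjamini-Hochberg adjustment 0 had an adjusted p under 0.05. At an unadjusted p under 0.05, 4 (Ftsj3, Nmd3, Heatr1 and Gnl3) were higher in Ts1Cje, where 2.99% of all genes were, and 0 were lower, where 2.8% were. All 3 Ts1Cje libraries lay above all 3 WT libraries for 8 of the 59, where 6.38% of all genes did, and below for 0. Ftsj3, a methyltransferase of ribosomal RNA precursors, had 57.8, 54.9 and 56.1 CPM in Ts1Cje libraries and 39.3, 33.0 and 44.7 CPM in WT libraries, a log2 fold change of 0.53 ± 0.16 (SE) with an edgeR p of 0.0102. Nmd3, the export adaptor of the large subunit, had 64.8, 60.2 and 55.6 CPM in Ts1Cje libraries and 50.5, 43.0 and 44.4 CPM in WT libraries, a log2 fold change of 0.39 ± 0.14 (SE) with an edgeR p of 0.0255. In both genes the groups did not overlap. Measured from the WT mean, the median assembly factor lay at 0.18, 0.19 and 0.10 in Ts1Cje and 0.00, -0.14 and 0.15 in WT libraries, so WT replicate 3 lay above Ts1Cje replicate 3.

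Host genes of small nucleolar RNAs, several of which also carry TOP starts, had a median of -0.32 over 8 tested. Of these 7 were negative, where 50.8% of all genes were. At an unadjusted edgeR p under 0.05 there were 0, where 2.8% of all genes were lower and 2.99% higher. Snhg1 and Snhg4 were at -0.52 ± 0.33 and -0.73 ± 0.49 (SE), and without WT replicate 1 at -0.31 and -0.40. Among 18 regulators tested, the fold change of 10 was positive and that of 8 negative, where 49.2% of all genes were positive, and the median was 0.06. Again 0 had an unadjusted edgeR p under 0.05, beside the same 2.8% and 2.99% of all genes. Eif4ebp2, a translation repressor that mTOR inactivates, was at -0.57 ± 0.27 (SE). Trp53, which encodes p53, had 47.9, 48.7 and 45.9 CPM in Ts1Cje libraries and 39.8, 37.8 and 42.9 CPM in WT libraries, at 0.24 ± 0.13 (SE), and the groups did not overlap.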

How the data were processed

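RNA of 3 Ts1Cje and 3 WT cultures was turned into libraries with a SMART-seq HT Plus kit, per the labels' protocols. FastQC 0.11.7, Trimmomatic 0.38, HISAT2 2.1.0 and featureCounts 1.6.3 with the mm10 genome are named in the submitters' processing notes. Strand setting and the handling of reads with several positions are not given in the sources used here, and a kit without strand marks cannot tell a gene from its antisense partner. The authors deposited raw counts per gene and TPM, with 1 column per library in each table. No row of the count table was without a gene. The deposited TPM divide by the merged length of GENCODE M21 exons, checked on 80 members with more than 100 counts in every library (largest relative difference 5.94e-10). All 87 member IDs were found in GENCODE M21 with the same coordinates.

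Counts were tested with edgeR 4.0.16 in R 4.3.3 over all genes kept by filterByExpr (count minimum 10, total minimum 15), with TMM factors, genotype as the only term, the quasi-likelihood test and Benjamini-Hochberg adjustment over 13821 genes at 0.05. CPM are TMM-scaled; log2 CPM use a prior count of 2. Members, lists and tests were chosen with earlier results of these data known, so no list was tested as a set and no p is given for a score over members. Named genes are, in each subunit, the 4 tested members with the smallest p and the 3 with the highest mean TPM, a fixed set chosen by role or paralogy, the 2 smallest p of each other list, and Fau, Rack1, Csf1r and Spi1, except for an item that is not reported here. Other genes, among them Rps27rt, Rps10, Rpl13a, Rpl12, Rpl30, Rpl13, Rpl7a, Rps26, Heatr1 and Gnl3, were chosen after their values were seen. The fit was repeated with upper-quartile and RLE factors, with TMM factors that leave out the members, with no filter and a count minimum of 50, in DESeq2 1.42.0 and limma-voom (limma 3.58.1), in limma on the log2 of TPM plus 1 or 0.1 (TPM minimum 1, or none), with a block for the replicate number, and with every library dropped in turn. The tests were also run on simulated data. PCR reads without molecular identifiers are not independent molecules.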

Additional observations from a re-analysis of the deposited data

How the results depend on the processing

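Members past the threshold were 0 under all 11 alternatives and with each library left out. The count over all genes, 1 as reported, was 3 with no filter, 56 with DESeq2 and 1 to 6 with a library left out, 6 without WT replicate 3. Members lower at an unadjusted p under 0.05, 5 as reported, were 8 with upper-quartile factors and 1 to 12 with a library left out (1 without Ts1Cje replicate 3, 2 without WT replicate 2, 3 without Ts1Cje replicate 1, Ts1Cje replicate 2 or WT replicate 1, and 12 without WT replicate 3); members higher were 0 to 2, 2 without WT replicate 3. The median over members was -0.16 to -0.10 with a library left out and -0.15 with upper-quartile factors, where the median of all genes was -0.04. The large minus small difference was -0.01 to 0.00 under the other alternatives and 0.003 to 0.026 with a library left out. The share of counts, Ts1Cje minus WT, was -0.144 to -0.0394 percentage points with a library left out.

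Of 712 values of 42 named genes, 686 kept their sign and side of the threshold and 26 changed sign, all among the 6 genes named next, which were near 0 as reported; the lowest adjusted p was 0.126 (edgeR with Benjamini-Hochberg adjustment, Rps27 without WT replicate 3). Rplp1 was -0.00612 with RLE factors, -0.0349 with upper-quartile factors, -0.0017 with TMM without the members, -0.0125 with the stricter filter, -0.00614 with DESeq2, -0.00429 with limma-voom, and -0.0105 on log2(TPM + 1), with and without the minimum, and on log2(TPM + 0.1). Rpl5 was 0.00408 with no filter and 0.0065 with limma-voom. With a library left out, Rplp1 ranged from -0.0956 to 0.0573, Rps2 from -0.0644 to 0.017, Rpl5 from -0.14 to 0.0662, Rpl10 from -0.194 to 0.0233, Rps6 from -0.0866 to 0.00449 and Rack1 from -0.0201 to 0.143. The cause of these changes was not tested.

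The replicate numbers gave no sign of pairing the libraries. The correlation of deviations from the group mean was -0.18, -0.05 and -0.06 between same-numbered libraries, and -0.11 to 0.17 between the others. With 3 libraries per group, each measured from its own group mean, these correlations cannot tell whether same-numbered libraries share a batch. With the replicate number as a block, 0 genes of all passed the threshold and 2 members were lower at an unadjusted p under 0.05; Rplp1 was -0.00449 and Rpl5 was 0.00515.

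Dixon's rule for single libraries that stand apart was not applied, since groups of 3 give it little power. Depth limits Rps10, Rpl36al and Rpl24, which had 5 to 41 counts per library.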

Other observations

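Processed copies of ribosomal protein genes were counted apart from the members. The 311 rows whose symbols contain "-ps" held 3.46% to 3.69% as many counts as the members in Ts1Cje and 3.57% to 3.73% in WT libraries. With other pseudogene rows of these families there were 318, of which 94 passed the filter on low counts. Of the 94, 26 had a positive and 68 a negative log2 fold change, where 50.8% of all tested genes were negative, and the median was -0.17. By edgeR 0 passed the threshold after Benjamini-Hochberg adjustment, as 0.00724% of all genes did. At an unadjusted p under 0.05 there were also 0, where 2.8% of all genes were lower and 2.99% higher. All 3 Ts1Cje libraries lay below all 3 WT libraries for 9 and above for 5, where this held for 5.72% and 6.38% of all genes. Rps4l, annotated as a transcribed processed pseudogene, had 47.1, 31.3 and 20.3 CPM in Ts1Cje and 18.5, 21.1 and 23.4 CPM in WT libraries, at 0.65 ± 0.30 (SE); it was chosen after its values were seen. Myc, a transcription activator of ribosome genes, had 72.6, 65.2 and 54.6 CPM in Ts1Cje and 19.7, 28.6 and 70.8 CPM in WT libraries, at 0.69 ± 0.43 (SE), also chosen after its values were seen. WT replicate 3 lay with the Ts1Cje libraries in Myc.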
